A study of Caenorhabditis elegans with 4 samples.

Results

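The genes of the dauer TGF-beta pathway of Caenorhabditis elegans are daf-1, daf-3, daf-4, daf-5, daf-7, daf-8 and daf-14. They were taken by name from the deposited table, and make up 7 of its 46766 genes. All 7 passed the filter on low counts that left 16341 genes to test, so none of the pathway is missing from the comparison. The RNA came from whole worms of N2, the wild-type laboratory strain, in synchronized populations that were 22 days old. In the GNC group, 2 libraries came from worms given GNC (Gengnianchun), a traditional Chinese formula made from several herbs and a turtle shell, at 3.94 mg/mL. In the control group, 2 libraries came from worms given water as the vehicle. Worms of both groups were fed E. coli OP50 and, by the sample descriptions, kept in S-complete liquid medium, although the series description names NGM instead. No allele, transgene or dissected tissue was involved, and the descriptions do not say whether the 2 libraries of a group came from separate cultures. The p-values therefore measure the spread between these libraries, which may be technical.

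DAF-7 is the ligand of the pathway, a TGF-beta family protein that is made mainly by the ASI pair of chemosensory neurons when food is plentiful and crowding is low. It signals through the type I receptor DAF-1 and the type II receptor DAF-4, and the receptors act on the Smad proteins DAF-8 and DAF-14. These antagonise the co-Smad DAF-3 and its Sno/Ski partner DAF-5, which promote entry into dauer, the resistant larval stage, when the ligand is low. In adults the same pathway is known for effects on feeding, fat storage, egg laying and lifespan. The comparison described here shows whether the mRNA of each component differed between GNC-treated and control worms at an old age.

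Values are given as CPM, the count of a gene scaled to the size of its library with the TMM factor, which corrects for differences in composition between libraries. The total count was 21753657 and 20138896 in the GNC libraries and 18639631 and 20088353 in the control libraries. Replicates differed by more than sampling noise, with a chi-square per gene of 7.23 between the GNC libraries and 6.89 between the control libraries, and all 4 were kept as separate samples. Over the tested genes, the libraries of a group differed by a median of 0.10 (GNC) and 0.12 (control) in log2 CPM. The counts of the 7 genes ran between 276 and 1746 per library, which gives each value a counting error of 2.39% to 6.02%.

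The ligand gene daf-7 and the co-Smad gene daf-3 were higher in GNC-treated worms, by 1.37-fold and 1.31-fold. The genes of both receptors, both receptor-regulated Smads and the DAF-3 partner daf-5 did not pass the test, and their log2 fold changes lay between -0.09 and 0.09. Of the 7 genes, 2 (28.6%) passed edgeR's quasi-likelihood test at a Benjamini-Hochberg adjusted p under 0.05, both higher and 0 lower. Among all genes tested, 40.4% passed, 19.8% higher and 20.5% lower, so in this fit the share in the pathway was below that of the table as a whole. The order of these shares depended on the setting, since the same 2 of 7 genes passed with no filter on low counts, where 8.83% of all genes tested passed, and with limma at pseudocounts 0.1 and 1, where 27.3% and 28.2% passed. The median log2 fold change was 0.06 over the 7 genes and 0.02 over all genes tested. Rescaling every library to an equal median count lowers every fold change. At that setting 2 of the 7 genes passed as higher and 1 as lower, where 45.7% of all genes tested passed.

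No gene of the pathway reached the 2-fold change that the study's methods require beside an FDR under 0.05. By that rule 0 of the 7 genes were called, against 7.20% of all genes tested, 4.97% higher and 2.23% lower. At an unadjusted p under 0.05 edgeR's quasi-likelihood test gave 2 of the 7, against 48.6% of all genes tested, and DESeq2, limma and edgeR's exact test likewise called 0 at 2-fold. In 3 of the 7 genes both GNC libraries were higher than both control libraries, and in 1 both were lower. The same held in 36.5% and 34.5% of all genes tested, or 71.0% in either direction, so libraries that do not overlap were common in this comparison.

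**Figure D1:**
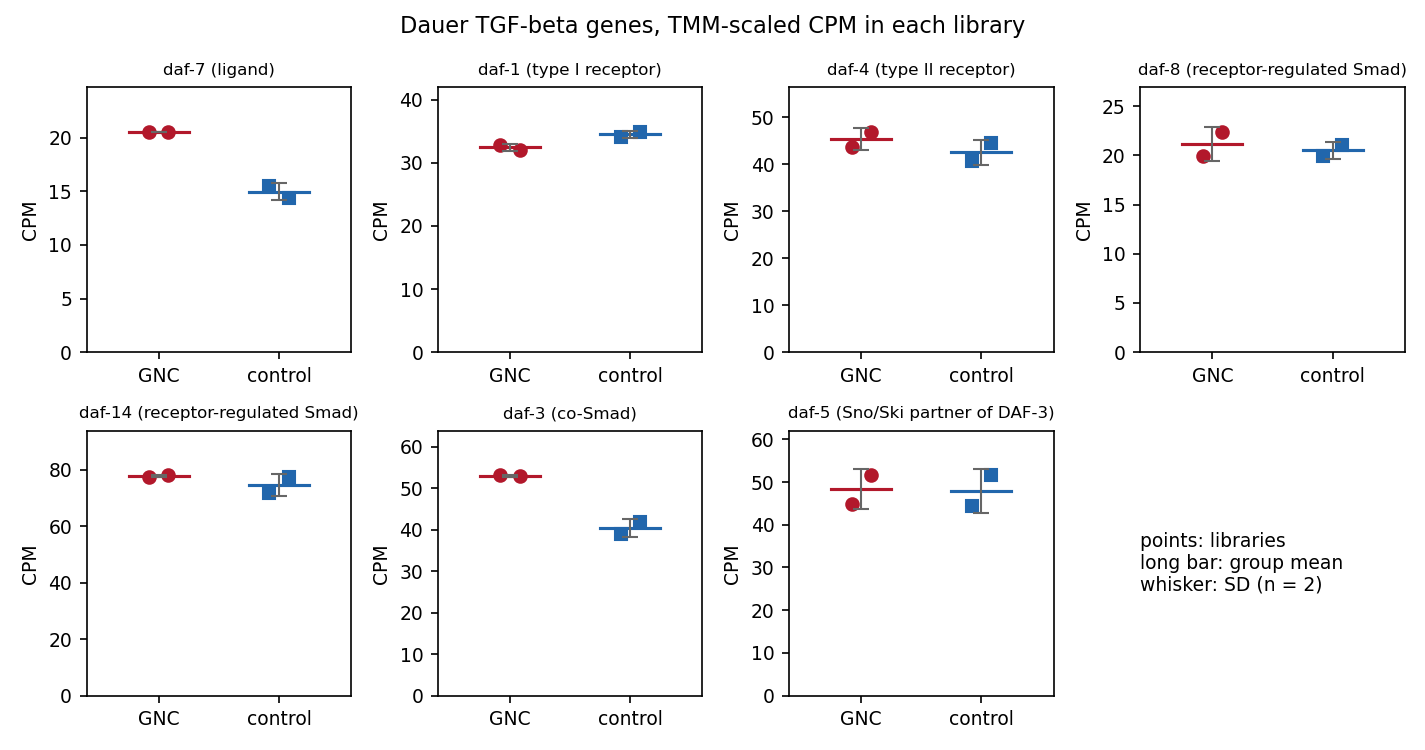
Level of each of the 7 genes in every library, in TMM-scaled CPM, with GNC libraries to the left of control libraries in each panel a long bar at the mean of each group and whiskers for the SD (n = 2 per group). The GNC points of daf-7 sit at 20.6 CPM, above control points at 15.5 and 14.4 CPM, while those of daf-5 span the same range in both groups.

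The gene daf-7 (WBGene00000903) lies on the plus strand of chromosome III at 811828 to 813764 in WBcel235. It is annotated with 1 transcript of 5 exons, and no annotated gene overlaps it. Its counts were 463 and 428 in the GNC libraries and 282 and 276 in the control libraries. After scaling these were 20.6 and 20.6 CPM in GNC-treated worms and 15.5 and 14.4 CPM in control worms. The GNC libraries were nearly equal and both lay above the control libraries. The means were 20.6 ± 0.0014 CPM in GNC-treated worms and 14.96 ± 0.785 CPM in control worms (SD, n = 2 each). This GNC SD is far below the counting error of daf-7, 4.65% to 6.02% per library, so it overstates the precision. The log2 fold change was 0.46 ± 0.10 (SE), or 1.37-fold with a 95% interval of 1.177 to 1.604, at an adjusted p of 0.0053 by edgeR's quasi-likelihood test (Benjamini-Hochberg adjustment). This was the largest fold change of the pathway, and 80.5% of all genes tested had a lower log2 fold change. Leaving out any 1 library gave log2 fold changes between 0.40 and 0.51, with adjusted p-values up to 0.018.

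As the product of so few neurons, daf-7 was set beside markers of the cells that make it. Of the 5 ASI markers, the G protein gene gpa-4 had 10.7 and 9.89 CPM in GNC-treated worms and 5.67 and 7.26 CPM in control worms. It rose by 0.67 ± 0.15 on the log2 scale (SE, adjusted p of 0.0067 by edgeR's quasi-likelihood test), a call lost with no filter on low counts (adjusted p of 0.0791). The receptor gene str-3, a defining ASI marker, was near 0, with 1 and 0 counts in the GNC libraries and 3 and 3 counts in the control libraries. The markers srg-47 and str-2 had between 0 and 6 counts per library, and gcy-6, which is better known from another sensory neuron, had between 4 and 17. Only gpa-4 and gcy-6 passed the filter on low counts, and the log2 fold change of gcy-6 was 0.27 ± 0.59 (SE, adjusted p of 0.754 by edgeR's quasi-likelihood test). Summed over the 5 markers, the level was 11.5 and 11.2 CPM in GNC-treated worms and 7.04 and 7.78 CPM in control worms, nearly all of it from gpa-4. In RNA of whole worms, fewer cells of a type and less RNA per cell cannot be told apart, which applies to daf-7 and to every gene that follows. The part of the ASI markers in the result for daf-7 was not tested.

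Lists for wider sets of neurons were read from the same fit. Of 14 pan-neuronal markers, 3 were higher and 0 lower, with a median log2 fold change of 0.13. Their summed level was 1202 and 1208 CPM in GNC-treated worms and 1059 and 1189 CPM in control worms. Of 13 tested markers of ciliated sensory neurons, 3 were higher and 0 lower, with a median of 0.32 and sums of 191 and 197 CPM in GNC-treated worms against 170 and 175 CPM in control worms. Both lists thus had a smaller share of passing genes (21.4% and 23.1%) than all genes tested, although all their passing genes were higher. Their part in the result for daf-7 was not tested.

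The type I receptor gene daf-1 (WBGene00000897) lies on the plus strand of chromosome IV at 132416 to 138076. It had 32.8 and 32.0 CPM in GNC-treated worms and 34.1 and 34.9 CPM in control worms. The GNC libraries were the lower in this gene, without overlap, but the gap was small against the spread that edgeR estimates across genes. The means were 32.4 ± 0.615 CPM in GNC-treated worms and 34.5 ± 0.570 CPM in control worms (SD, n = 2 each). The log2 fold change was -0.09 ± 0.08 (SE, adjusted p of 0.381 by edgeR's quasi-likelihood test), and its 95% interval in fold was 0.833 to 1.06. The gene passed the test, lower, only with every library rescaled to an equal median count (log2 fold change of -0.22, adjusted p of 0.0391).

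The type II receptor gene daf-4 (WBGene00000900), which also serves the body size pathway of the ligand DBL-1, lies on the plus strand of chromosome III at 5625014 to 5632319. It had 43.7 and 46.9 CPM in GNC-treated worms and 40.7 and 44.4 CPM in control worms. The groups overlapped, and replicate 2 was the higher library in each. Its log2 fold change was 0.09 ± 0.08 (SE, adjusted p of 0.394 by edgeR's quasi-likelihood test), with a 95% interval in fold of 0.943 to 1.201. The noncoding RNA gene C05D2.11 lies on the same strand, and its span shares 1263 bases with that of daf-4. Overlaps given here and below are of gene spans, introns included, and shared exons were not checked. Reads could be split between the 2 genes only where exons coincide. C05D2.11 was counted 108 to 152 times per library, against 739 to 984 counts of daf-4.

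The Smad genes daf-8 and daf-14, whose products carry the signal from the receptors, were close to equal in the 2 groups. The gene daf-8 (WBGene00000904, chromosome I, minus strand, 8584542 to 8587507) had 19.9 and 22.4 CPM in GNC-treated worms and 19.9 and 21.1 CPM in control worms. Its log2 fold change was 0.05 ± 0.10 (SE, adjusted p of 0.754 by edgeR's quasi-likelihood test), with a 95% interval in fold of 0.883 to 1.21. The control libraries lay inside or at the edge of the GNC range, so no direction could be read. The gene daf-14 (WBGene00000910, chromosome IV, plus strand, 10250646 to 10255844) had 77.5 and 78.1 CPM in GNC-treated worms and 71.8 and 77.3 CPM in control worms. Its groups did not overlap, but the lower GNC library stood just above the higher control library. That of daf-14 was 0.06 ± 0.06 (SE, adjusted p of 0.478 by edgeR's quasi-likelihood test), with a 95% interval in fold of 0.946 to 1.15. The gene F01G10.9 on the opposite strand shares 90 bases with daf-14 and had 54 to 72 counts per library, few beside the 1305 to 1746 counts of daf-14.

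The co-Smad gene daf-3 (WBGene00000899) lies on the minus strand of the X chromosome at 817927 to 825475. It is annotated with 9 transcripts, and no annotated gene overlaps it. Its counts were 1198 and 1101 in the GNC libraries and 708 and 804 in the control libraries, or 53.2 and 52.9 CPM in GNC-treated worms and 39.0 and 42.0 CPM in control worms. The GNC libraries were nearly equal here too, and well above both control libraries. The means were 53.0 ± 0.222 CPM in GNC-treated worms and 40.5 ± 2.13 CPM in control worms (SD, n = 2 each). Here too the GNC SD is below the counting error, 2.89% to 3.76% per library. Its log2 fold change was 0.39 ± 0.07 (SE), or 1.31-fold with a 95% interval of 1.17 to 1.46, at an adjusted p of 0.00214 by edgeR's quasi-likelihood test (Benjamini-Hochberg adjustment). This was the lowest adjusted p of the pathway, and 77.4% of all genes tested had a lower log2 fold change. Leaving out any 1 library gave log2 fold changes between 0.34 and 0.44, with adjusted p-values up to 0.0102.

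The gene daf-5 (WBGene00000901, chromosome II, minus strand, 14033233 to 14037721) encodes the Sno/Ski protein that acts with DAF-3, but it did not share the rise of daf-3. It had 45.0 and 51.6 CPM in GNC-treated worms and 44.4 and 51.6 CPM in control worms. The 2 groups covered almost the same range, and replicate 2 was the higher library in each. Its log2 fold change was 0.01 ± 0.09 (SE, adjusted p of 0.953 by edgeR's quasi-likelihood test), with a 95% interval in fold of 0.869 to 1.16. The intervals of the 5 genes that did not pass leave room for changes of up to 1.21-fold upward (daf-8) and down to 0.833 of the control level (daf-1). Changes within these intervals cannot be told from no change with these libraries.

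**Figure D2:**
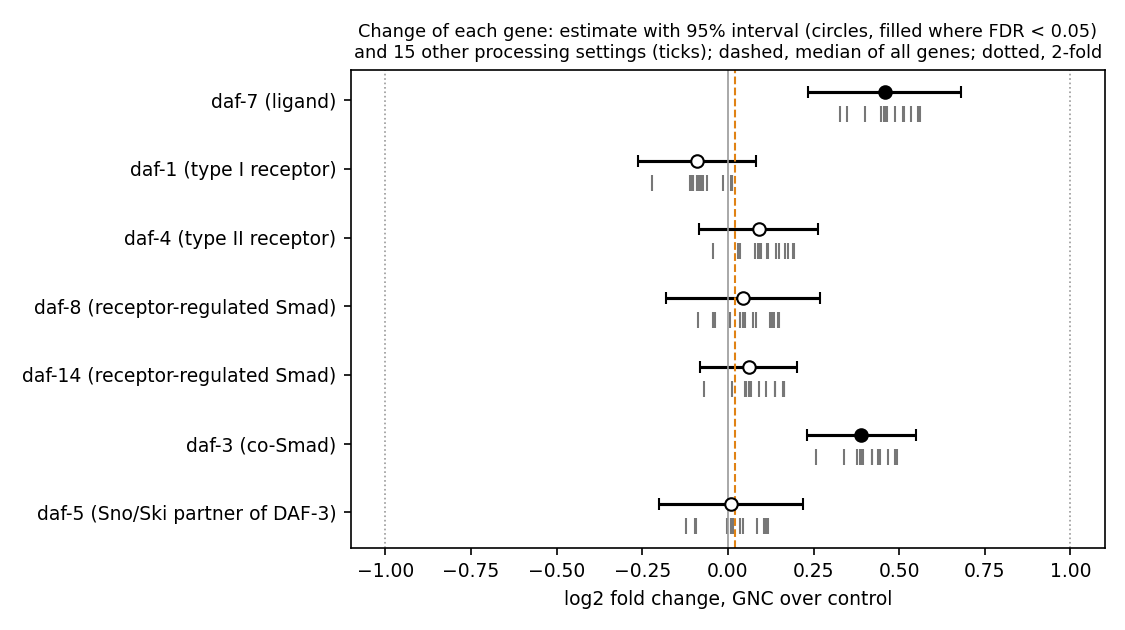
Log2 fold change of each of the 7 genes, GNC over control, with its 95% interval from edgeR's quasi-likelihood fit, and the log2 fold changes under the 15 alternative settings as ticks; filled circles passed the test, the dashed line is the median of all genes tested (0.02) and dotted lines mark 2-fold. The intervals of daf-7 (0.23 to 0.68) and daf-3 (0.23 to 0.55) lie above 0, and those of the other 5 genes cross it.

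The results for daf-7 and daf-3 were followed across 15 alternative settings of the scaling, the filter, the test and the libraries included. Both genes kept an adjusted p under 0.05 in all 15. The log2 fold change of daf-7 ranged from 0.33 to 0.56 and that of daf-3 from 0.26 to 0.49. The scaling accounts for part of these ranges, since it moved the median of all genes tested from -0.11 (equal median count) to 0.12 (library totals). Relative to that median, daf-7 was higher by 0.36 to 0.49 and daf-3 by 0.32 to 0.43 on the log2 scale. The highest adjusted p-values, 0.0449 for daf-7 and 0.0446 for daf-3 by edgeR's quasi-likelihood test, came with no filter on low counts, where 29615 genes were tested.

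The ratios of these genes within each library do not depend on the scaling. The counts of daf-3 per 100 counts of the 5 genes other than daf-3 and daf-7 were 24.3 and 22.9 in the GNC libraries and 18.5 and 18.3 in the control libraries. For daf-7 the same ratio was 9.39 and 8.90 in the GNC libraries and 7.36 and 6.28 in the control libraries. Both ratios were higher in the GNC libraries without overlap, by 0.36 for daf-3 and 0.42 for daf-7 on the log2 scale. Separation of the groups was common, at 71.0% of all genes tested in either direction in CPM, and no such share was computed for ratios. These ratios, like those below, were chosen after the values were seen, and no test was run on them.

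Set against receptor and Smad genes that did not pass, daf-7 and daf-3 showed the same inequality, which restates the results above. Per 100 counts of the type I receptor gene daf-1, daf-7 had 62.6 and 64.3 counts in the GNC libraries and 45.5 and 41.3 in the control libraries. The gap was smaller per 100 counts of the type II receptor gene daf-4. There daf-7 had 47.1 and 43.8 counts in the GNC libraries and 38.2 and 32.4 in the control libraries. Per 100 counts of daf-14, the co-Smad gene daf-3 had 68.6 and 67.7 counts in the GNC libraries and 54.3 and 54.3 in the control libraries. The ratio of daf-7 to daf-3 did not separate the groups, with 38.6 and 38.9 counts of daf-7 per 100 of daf-3 in the GNC libraries and 39.8 and 34.3 in the control libraries. The ratio of daf-8 to daf-14 also overlapped, with 25.7 and 28.7 per 100 in the GNC libraries and 27.7 and 27.3 in the control libraries. Between the receptors, daf-1 had 75.2 and 68.2 counts per 100 of daf-4 in the GNC libraries and 83.9 and 78.6 in the control libraries. This ratio was lower in the GNC libraries without overlap, although neither receptor gene passed the test. Such separation says little by itself, since 71.0% of all genes tested separated the groups in CPM in either direction.

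**Figure D3:**
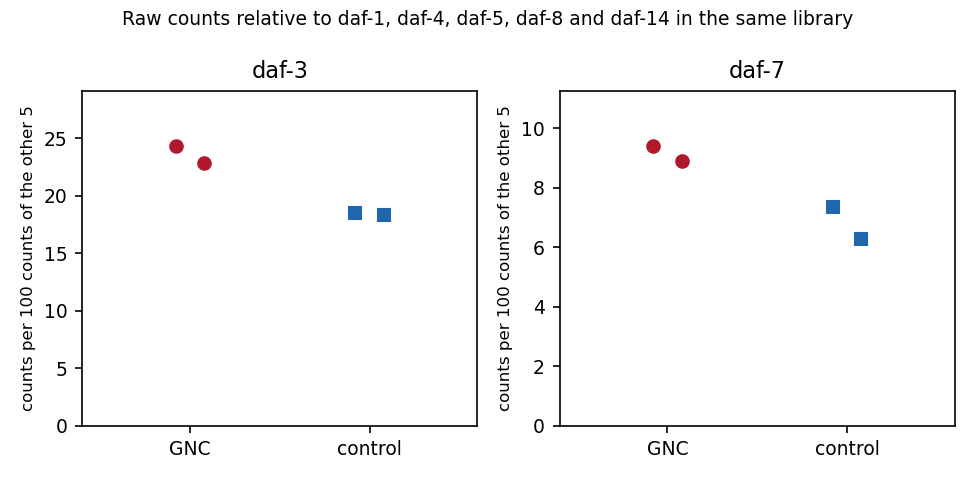
Counts of daf-3 and of daf-7 per 100 counts of the other 5 genes of the pathway, for each library, with GNC libraries left of control libraries. The GNC points lie at 24.3 and 22.9 for daf-3 and 9.39 and 8.90 for daf-7, above control points at 18.5 and 18.3 and at 7.36 and 6.28.

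Levels can be compared between genes only per length, for which the deposited FPKM values were used. The Smad gene daf-14 was the most abundant of the pathway, with 64.7 ± 0.271 FPKM in GNC-treated worms and 57.7 ± 2.11 FPKM in control worms (SD, n = 2 each). The gene daf-5 followed, with 20.03 ± 1.93 FPKM in GNC-treated worms and 18.5 ± 1.68 FPKM in control worms. The other 5 genes lay between 10.3 and 13.1 FPKM in GNC-treated worms and between 7.96 and 12.5 FPKM in control worms. The FPKM values divide by the library total and not by a TMM-scaled total, so all GNC values stand slightly higher against control values than in CPM.

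Below daf-5, the order differed between the groups. In GNC-treated worms the mean levels fell in the order daf-8 (13.1 FPKM), daf-7 (12.9), daf-1 (12.6), daf-3 (11.2) and daf-4 (10.3), and only the libraries of daf-8 overlapped those of the next gene, daf-7. In control worms the order was daf-1 (12.5 FPKM), daf-8 (11.8), daf-4 (9.03), daf-7 (8.74) and daf-3 (7.96), and only daf-4 and daf-7 overlapped as neighbours. The gene daf-7 thus stood at rank 4 in GNC-treated worms and at rank 6 in control worms, with 12.9 and 12.9 FPKM in the GNC libraries and 9.16 and 8.32 FPKM in the control libraries. The length behind the deposited FPKM, 4901 bases for daf-3 and 4540 for daf-4, exceeded the summed length of their annotated exons (3177 and 3097 bases) by 1.54 and 1.47 times. For the other 5 genes this ratio lay between 0.934 and 1.06. With annotated exon lengths, an alternative chosen after seeing the data, daf-3 had 17.3 FPKM in GNC-treated worms and 12.3 FPKM in control worms. It then took rank 3 in GNC-treated worms and rank 5 in control worms, and daf-4 took rank 4 in both, while daf-7 took rank 6 in GNC-treated worms and rank 7 in control worms. The ranks below daf-5 therefore depend on the length used.

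**Figure D4:**
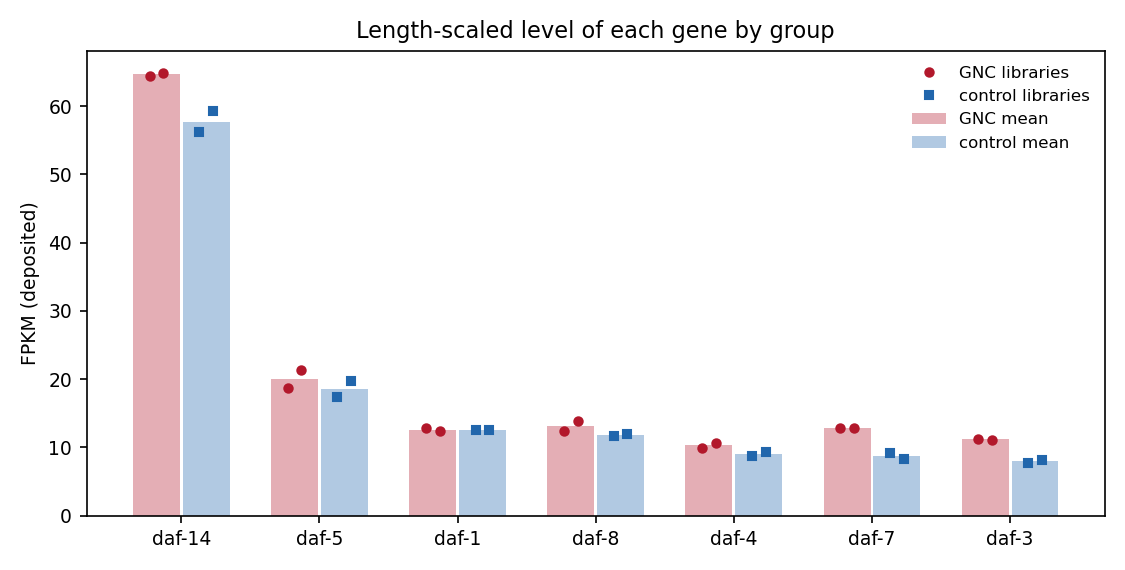
Deposited FPKM of the 7 genes on a linear axis from 0, with GNC left of control for each gene, a point for each library and a bar for each group mean (n = 2 per group), in the order of the control means. The gene daf-14, at 64.7 FPKM in GNC-treated worms and 57.7 FPKM in control worms, stands apart from the other 6, which lie between 7.96 and 20.03 FPKM.

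The tested genes closest to daf-3 in level and pattern were found from the root-mean-square difference in log2 CPM over the 4 libraries. They were Y43E12A.2 (0.03), the bZIP gene zip-12 (0.04) and the zinc finger gene ztf-13 (0.05). The gene zip-12, for example, had 55.6 and 52.3 CPM in GNC-treated worms and 40.6 and 42.0 CPM in control worms. A likeness over 4 libraries is a description of these libraries only.

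Genes that act around the pathway were read from the same fit in 7 lists: the DBL-1 branch, other TGF-beta ligands and receptor-associated proteins, the sensory input to daf-7, the steroid hormone branch, the insulin branch, insulin-like peptides, and downstream outputs. Of their 63 tested genes, 13 were higher and 10 lower in GNC-treated worms at an adjusted p under 0.05 by edgeR's quasi-likelihood test. That share of 36.5% stood beside the 40.4% of all genes tested, and the median log2 fold change was 0.10. Of the 23 genes that passed, 11 also passed in all 15 alternative settings. The other 12, sma-3, lon-2, crm-1, bra-2, tax-2, crh-1, daf-22, daf-41, ist-1, age-1, aap-1 and ins-5, lost the call in at least 1 of them. In the paragraphs that follow, log2 fold changes are given with their SE and with adjusted p-values from that test.

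In the DBL-1 branch, the other TGF-beta pathway of the worm, 4 of 11 genes were higher and 0 lower, with a median of 0.14. The co-Smad gene of this branch, sma-4, had 72.0 and 74.0 CPM in GNC-treated worms and 56.8 and 58.6 CPM in control worms, a log2 fold change of 0.34 ± 0.06 (adjusted p of 0.00216). The receptor-regulated Smad gene sma-3 had a log2 fold change of 0.31 ± 0.07 (adjusted p of 0.00732), a call lost with libraries rescaled to an equal median count. The glypican gene lon-2, which restrains the branch, rose by 0.38 ± 0.09 on the log2 scale (adjusted p of 0.00864), and crm-1 by 0.19 ± 0.06 (adjusted p of 0.0259). The call for crm-1 held in 10 of the 15 alternative settings. It was lost with DESeq2, an equal median count and no filter, and without GNC replicate 1 or control replicate 1. The ligand gene dbl-1 (0.12 ± 0.11, adjusted p of 0.437) and the type I receptor gene sma-6 (0.14 ± 0.08, adjusted p of 0.208) did not pass. A co-Smad gene thus passed in both TGF-beta pathways, where 40.4% of all genes tested passed. No receptor gene passed among daf-1, sma-6 and daf-4, the last of which both pathways share. This parallel was drawn after the values were seen. Other parts differed, since the ligand gene passed only in the dauer pathway and a receptor-regulated Smad gene only in the DBL-1 branch. Of the 4 tested genes for other ligands and receptor-associated proteins, bra-2 alone passed, lower, with a log2 fold change of -0.35 ± 0.07 (adjusted p of 0.00308). Its call was lost with no filter and with limma at either pseudocount.

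Among 12 genes of the sensory input to daf-7, 1 was higher and 3 were lower, with a median of 0.06. The cyclic nucleotide-gated channel gene tax-2 had 2.26 and 1.92 CPM in GNC-treated worms and 1.16 and 1.25 CPM in control worms. Its log2 fold change was 0.80 ± 0.28 (adjusted p of 0.0426), and the call was lost when any 1 of the 4 libraries was left out. The tax-2 call was also lost with DESeq2, an equal median count and no filter. The gene for the other subunit of that channel, tax-4, had 13 and 10 counts in the GNC libraries and 15 and 22 counts in the control libraries (adjusted p of 0.0949). The guanylyl cyclase gene daf-11, whose product acts upstream of daf-7 expression, had 18 to 34 counts per library (adjusted p of 0.842), and egl-4, the gene of a cyclic GMP-dependent kinase, did not pass (-0.11 ± 0.07, adjusted p of 0.213).

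The lower genes of this list were daf-21, crh-1 and daf-22, all abundant and none of them particular to sensory neurons. The Hsp90 gene daf-21 fell to 4999 and 4944 CPM in GNC-treated worms, against 6598 and 7244 CPM in control worms, with a log2 fold change of -0.48 ± 0.09 (adjusted p of 0.00202). It overlaps C47E8.4 on the opposite strand over 611 bases. The CREB gene crh-1 had a log2 fold change of -0.41 ± 0.08 (adjusted p of 0.00237). Its call was lost with no filter and with limma at either pseudocount. The gene daf-22, whose product makes the side chains of dauer pheromones, had a log2 fold change of -0.29 ± 0.08 (adjusted p of 0.0164). The call for daf-22 held in 7 of the 15 alternative settings. Among others, it was lost with library totals, no filter and limma, and without GNC replicate 2 or control replicate 2.

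In the steroid hormone branch, which acts below the TGF-beta and insulin branches in dauer entry, 3 of 10 tested genes were higher and 1 lower, with a median of 0.25. The nuclear receptor gene nhr-8 had 28.1 and 25.5 CPM in GNC-treated worms and 16.9 and 14.6 CPM in control worms, a log2 fold change of 0.77 ± 0.11 (adjusted p of 0.000467). The NPC1-like cholesterol transporter genes ncr-2 (0.60 ± 0.08, adjusted p of 0.000286) and ncr-1 (0.34 ± 0.06, adjusted p of 0.00118) also rose. These 3 genes passed in all 15 alternative settings. The genes of the hormone receptor DAF-12 (0.17 ± 0.07, adjusted p of 0.0818) and the hormone-synthesising cytochrome DAF-9 (0.56 ± 0.27, adjusted p of 0.122, at 24 to 44 counts per library) did not pass. The co-chaperone gene daf-41 was lower, at -0.27 ± 0.06 (adjusted p of 0.00806). That call held in 9 of the 15 alternative settings. Among others, it was lost with library totals, no filter and limma, and without GNC replicate 2.

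The insulin branch, which runs in parallel to the TGF-beta pathway, moved in both directions, with 2 of 10 genes higher, 3 lower and a median of -0.01. The kinase gene akt-2 had 72.5 and 79.6 CPM in GNC-treated worms and 45.1 and 49.9 CPM in control worms, a log2 fold change of 0.68 ± 0.08 (adjusted p of 0.000158). The insulin receptor substrate gene ist-1 rose by 0.44 ± 0.09 (adjusted p of 0.00517). Among the lower genes were the phosphoinositide 3-kinase gene age-1 (-0.22 ± 0.06, adjusted p of 0.0188) and its adaptor gene aap-1 (-0.26 ± 0.06, adjusted p of 0.00958). The call for age-1 held in 6 of the 15 alternative settings and that for aap-1 in 10. Both were lost with library totals, with no filter on low counts and with limma at either pseudocount. That for age-1 was also lost with DESeq2, with upper quartile scaling, and without GNC replicate 2 or control replicate 1. The span of Y62F5A.10 overlaps that of age-1 on the opposite strand over 1598 bases. The receptor gene daf-2 (0.07 ± 0.06, adjusted p of 0.384) and the FOXO gene daf-16 (-0.06 ± 0.06, adjusted p of 0.43) did not pass. Of 9 tested insulin-like peptide genes, 1 passed, ins-5, at 0.66 ± 0.22 (adjusted p of 0.0361). Its call held in 8 of the 15 alternative settings. Among others, it was lost with DESeq2 and without either GNC replicate or control replicate 1. The gene daf-28, a peptide of ASI and ASJ neurons, had 48 and 31 counts in the GNC libraries and 29 and 51 counts in the control libraries (adjusted p of 0.594).

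**Figure D5:**
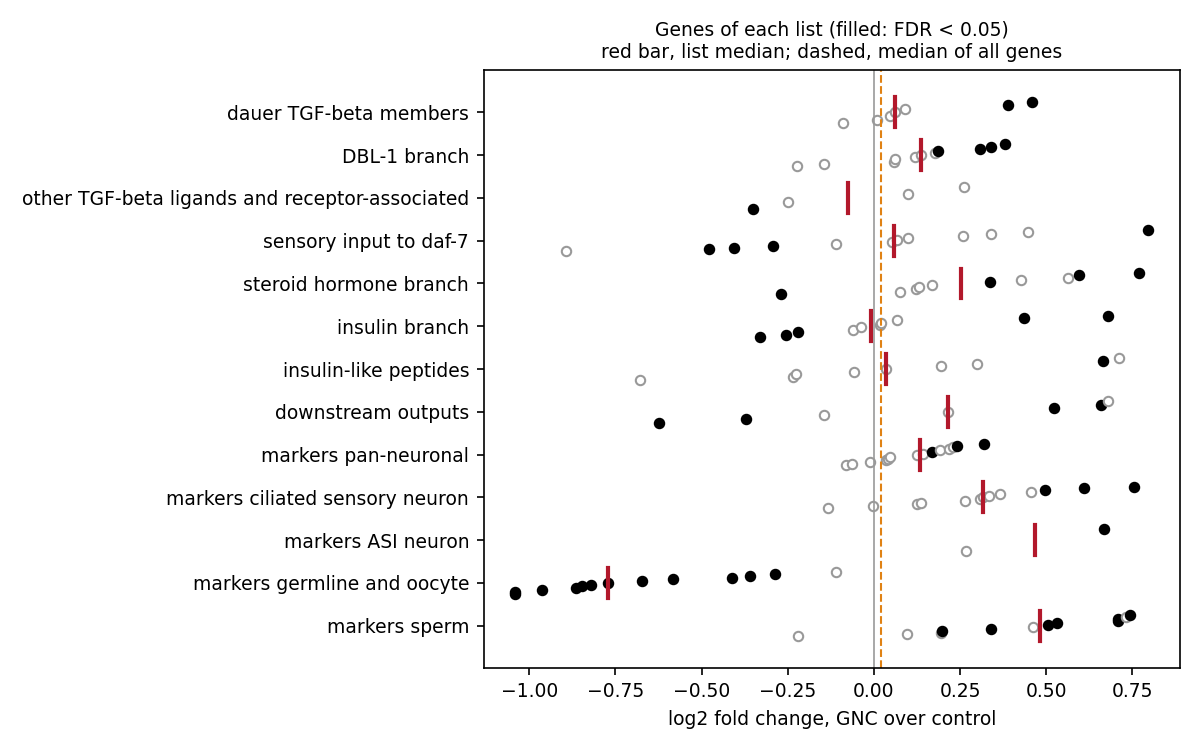
Log2 fold change, GNC over control, of the 7 pathway genes, the tested genes of the 7 lists around them and those of 5 marker lists, with genes at an adjusted p under 0.05 filled, a red bar at each list's median and a dashed line at the median of all genes tested (0.02). The medians of the 7 lists lie between -0.07 (other ligands and receptor-associated proteins) and 0.25 (steroid hormone branch), and the germline and oocyte markers stand lowest, at -0.77.

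Of 7 genes listed as outputs of the pathway, 2 were higher and 2 lower, with a median of 0.21. That share of 57.1% stood beside the 40.4% of all genes tested. The pharyngeal myosin gene myo-2, on whose enhancer DAF-3 is known to act as a repressor, had 336 and 369 CPM in GNC-treated worms and 239 and 252 CPM in control worms. It rose by 0.52 ± 0.07 on the log2 scale (adjusted p of 0.000314). Enzymes of the tyramine and octopamine route, which modify feeding and fat storage below DAF-7 signalling, moved in opposite directions. The octopamine-forming hydroxylase gene tbh-1 had 527 and 550 CPM in GNC-treated worms and 314 and 369 CPM in control worms, with a log2 fold change of 0.66 ± 0.08 (adjusted p of 0.000248). The tyrosine decarboxylase gene tdc-1 had 29.0 and 29.8 CPM in GNC-treated worms and 44.5 and 46.0 CPM in control worms, with a log2 fold change of -0.62 ± 0.07 (adjusted p of 0.000218).

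The germline outputs of the list were glp-1 and lag-2, a Notch receptor gene and the gene of its ligand. The receptor gene glp-1 had 2637 and 2487 counts in the GNC libraries and 2797 and 2910 counts in the control libraries, with a log2 fold change of -0.37 ± 0.05 (adjusted p of 0.000627). The ligand gene lag-2, which DAF-3 and DAF-5 are known to affect in the distal tip cell, had 2.84 and 3.36 CPM in GNC-treated worms and 2.31 and 1.57 CPM in control worms. Its log2 fold change of 0.68 ± 0.26 did not pass (adjusted p of 0.0618). The calls for myo-2, tbh-1, tdc-1 and glp-1 held in all 15 alternative settings. The genes suox-1 and H13N06.7 overlap tbh-1 on the opposite strand, gei-14 overlaps tdc-1 and ZK507.1 overlaps glp-1, and the counting is not stated to use strand.

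Markers of germline tissue moved with the groups as well. Among all genes tested, 19.8% passed as higher and 20.5% as lower. Of 13 germline and oocyte markers, 0 were higher and 12 (92.3%) lower, with a median log2 fold change of -0.77. Their summed level was 2938 and 3076 CPM in GNC-treated worms and 4644 and 4762 CPM in control worms. The oocyte yolk receptor gene rme-2, for example, had 72.4 and 70.4 CPM in GNC-treated worms and 137 and 141 CPM in control worms. Of 12 sperm markers, 7 (58.3%) were higher and 0 lower, with a median of 0.48. Their sums were 582 and 592 CPM in GNC-treated worms against 455 and 460 CPM in control worms. No germline, oocyte or sperm marker in these lists was at 0 in any library. The lower level of glp-1 and the higher levels of daf-7 and daf-3 stood beside these shifts, and the part of germline RNA in them was not tested.

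Markers of the intestine, body wall muscle and hypodermis included genes that passed in either direction. The shares that passed were 57.1%, 50% and 60% in that order, and 27.3% for embryo markers, against 40.4% of all genes tested. Of 7 tested intestinal markers 2 were higher and 2 lower, with sums of 1489 and 1470 CPM in GNC-treated worms and 1650 and 1804 CPM in control worms. Of 8 body wall muscle markers 3 were higher and 1 lower, with sums of 1744 and 1766 CPM in GNC-treated worms and 1558 and 1746 CPM in control worms. Of 5 tested hypodermal markers 1 was higher and 2 were lower, among them the collagen gene dpy-5, which had 273 and 200 counts in the GNC libraries and 482 and 607 counts in the control libraries (log2 fold change of -1.42 ± 0.13, SE, adjusted p of 7.05e-05 by edgeR's quasi-likelihood test). The larval collagen genes dpy-7 and rol-6 had between 1 and 8 counts per library. Of 11 tested embryo markers 1 was higher and 2 were lower, with sums of 110 and 115 CPM in GNC-treated worms and 114 and 122 CPM in control worms. Neuronal, muscle, intestinal and germline RNA were thus all present in both groups. The study's RNA-seq methods do not say whether progeny were removed, so RNA of progeny cannot be told apart from that of the aged worms.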

How the data were processed

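RNA-seq was performed on 4 libraries of whole N2 worms, 2 given GNC and 2 given water, on an Illumina HiSeq instrument. The authors deposited a table of raw counts per gene, together with FPKM values that follow from the count, the library total and a length for the gene. The submitters' processing notes name CASAVA 1.8, TopHat2 2.1.0, Cuffdiff and WBcel235, without their roles. The counter, the annotation and the use of strand are not given in the sources used here.

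Groups came from the sample titles. The deposited counts of all 4 libraries were filtered (filterByExpr), scaled by TMM and tested with the quasi-likelihood method of edgeR 4.0.16 (R 4.3.3). Treatment was the sole factor, and p-values were adjusted by Benjamini-Hochberg over 16341 genes. The SE is the log2 fold change divided by the square root of F. The procedure was tested on simulated data with a common dispersion and equal numbers of raised and lowered genes. That test does not bear on the choice of scaling. Intervals on fold changes come from the quasi-likelihood fit, so they include the spread between libraries as that fit estimates it. The counting errors given in percent cover counting only. Total counts ranged from 18639631 to 21753657, and the common biological coefficient of variation was 6.67%.

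The 7 pathway genes and all lists were chosen with earlier results of these data known. The genes named are the 7, up to 5 with the lowest adjusted p among the passing genes of each list, and the 3 genes most like the pathway gene of lowest adjusted p. Other genes of a list that did not pass, and markers given as examples or at low counts, were named after their values were seen. A gene of the insulin branch that the rule names is not reported here. The gene hsd-1 and the other listed genes with few counts were removed by the filter, and the list entries daf-40 and opt-2 matched no gene in the table.

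Alternative settings were the replicate number as a block, DESeq2 1.42.0, 3 other scalings (upper quartile, library totals, same median count), no filter beyond 1 count in total, at least 10 counts in every library, limma 3.58.1 on log2(FPKM + 0.1) or log2(FPKM + 1) for genes reaching 1 FPKM in 2 or more libraries, the exact test of edgeR, and each library left out. Expression-dependent offsets and annotated gene lengths were added after seeing the data.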

Additional observations from a re-analysis of the deposited data

How the results depend on the processing

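The calls of daf-7 and daf-3 and the absence of a 2-fold call in the pathway held under all 15 alternatives. The direction of the genes that did not pass was less stable. The same median count lowered every fold change, with the median of all genes tested at -0.11 against 0.02. The cause under other settings was not tested. Rescaling to the same median count gave -0.123 for daf-5, -0.042 for daf-4, -0.0862 for daf-8 and -0.0709 for daf-14 on the log2 scale, and made 1 pathway gene (daf-1) pass as lower. The log2 fold change of daf-1 was 0.0118 with library totals and 0.011 and 0.0103 with limma at pseudocounts 0.1 and 1, that of daf-5 was -0.0023 with DESeq2, and that of daf-8 was -0.0378 with expression-dependent offsets. With 1 library left out, daf-5 ranged from -0.0957 to 0.117 and daf-8 from -0.0432 to 0.128. A left-out library leaves a group with 1 sample, which is assumed to vary like the other group. Pathway genes with GNC libraries below control libraries numbered 0 with upper quartile scaling, library totals, no filter and limma at either pseudocount, and 2 with the same median. Those above numbered 5 with library totals and with limma at either pseudocount. With 1 library left out, they numbered 1 to 2 below and 3 to 6 above, but 1 library separates from 2 more easily. The share over all genes tested was not computed under these settings, so the counts have no background beside them.

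Over all genes, those lower at an adjusted p under 0.05 numbered 2121 with library totals, 5162 with the same median, 1042 with no filter, and 1411 and 1472 with limma at pseudocounts 0.1 and 1, while no filter gave 1573 higher. At 2-fold, 185 genes were lower with no filter and 182 with limma at pseudocount 1, and 482 were higher with the offsets. In the lists around the pathway, 6 genes were lower with library totals and 4 with no filter and with limma at either pseudocount, and no filter gave 8 higher.

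Replicate numbers were not taken to pair the libraries: the correlation of same-numbered deviations over genes was 0.04, from only 2 pairs. With the replicate block, 2 pathway genes passed, as without it, with adjusted p-values of 0.00254 for daf-7 and 0.000486 for daf-3 by edgeR's quasi-likelihood test, and 3469 genes were higher and 3601 lower.

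With 2 libraries per group, the exact permutation test cannot give a p below 0.333, so each gene's precision rests on spread shared across genes.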
